A study of Homo sapiens and Homo sapiens
Mus musculus and Mus musculus with 200 samples.

Results

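H3K27ac, a histone acetylation found at active enhancers and promoters, was measured by ChIP-seq in ALX1FV ALX4- cells before and after the removal of ALX1. These are human cranial neural crest cells (hCNCC), the embryonic cells that give rise to much of the face, differentiated in culture from the H9 embryonic stem cell line. In the labels' naming, ALX1 carries the FV tag, which allows its degradation with dTAGV-1 (500 nM) and its detection through V5, and ALX4- marks the loss of ALX4, which the 0 h controls of this line share. The experiment comprised 6 of the 200 samples of the series, at 0, 3 and 24 h of dTAGV-1. Each time had 2 libraries, 1 from clone c22 (#2) (replicate 1) and 1 from clone c14 (#3) (replicate 2), so the spread between replicates is a spread between clones. They were compared with the other 30 H3K27ac libraries, which had the same times and 2 replicates each: ALX1FV (clones c17 and c33, ALX4 intact), PRRX1FV (clones c10 and c14) and MSX1FNV (clone name c93/69 for both replicates), each with a tagged homeodomain factor, TWIST1FV (clone c64 for both replicates), and WT cells with no tagged factor, which also received dTAGV-1. The V5 libraries taken 3 h after dTAGV-1 were not analysed here, so the loss of ALX1 protein itself was not measured in these data.

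ALX1 and ALX4 are closely related paired-type homeodomain transcription factors of the frontonasal mesenchyme, and mutations in either cause human frontonasal dysplasia. A homeodomain recognises short AT-rich sites around TAAT, and paired-type homeodomains can bind as dimers to a palindrome of 2 such sites, TAAT and ATTA, spaced by 3 bases. TWIST1 is a bHLH factor of the same mesenchyme that binds E-boxes and can do so together with homeodomain factors at composite sites. The comparison asks where the active mark depends on ALX1 when ALX4 cannot take its place, and which of those places also depend on TWIST1.

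Counts were taken by the authors over 213151 merged ATAC-seq peaks, which were called from open chromatin and not from H3K27ac. The 6 libraries held 6786418 to 8811096 counts, and 122000 peaks passed the filter on low counts. In them H3K27ac was present at start sites of all 9 cranial neural crest markers, with summed levels of 453 to 535 CPM per library, where CPM is the count scaled by library size and composition. For the other lists, which had a tested start-site peak for 2 to 8 genes each, the summed levels were 164 to 193 CPM for pluripotency genes (159 of them at LIN28A), 58.1 to 77.5 CPM for glia and melanocytes, and between 5.76 and 11.1 CPM for each of neural progenitors, neurons, mesoderm and epithelium. No start-site peak of these lists was called at 24 h. As 0.139% of all tested peaks were called lower and 0.0164% higher, a count of 0 in so few is no contrast. A part of other cells in the results was not tested.

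The sequences of the falling peaks introduce the members. A peak is called falling below when its H3K27ac was lower at 24 h than at 0 h in edgeR's quasi-likelihood test with the clone as a block. The threshold was an FDR, the p adjusted after Benjamini and Hochberg, of 0.05. Of 170 such peaks, 9 held the palindrome in the 501 bases around their centre. The sites of 6 of these peaks are shown because this spacing of TAAT and ATTA was the most frequent in falling peaks among those searched. They and the windows printed further on were chosen after the values were seen. Each is read from hg38, plus strand, 5′ to 3′, with the palindrome in capitals. SASH1, MAMDC2 and ALDH1A3 are the nearest protein-coding genes of their peaks, with starts 331, 33.5 and 104.5 kb away. A gene of another kind lay nearer to each: ENSG00000287976, MAMDC2-AS1 and ENSG00000279588.
LINC01724 side (chr1:196142127-196142167): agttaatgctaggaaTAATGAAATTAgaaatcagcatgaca
ADAMTSL1 intron (chr9:17949519-17949559): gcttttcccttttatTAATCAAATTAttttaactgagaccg
nearest SASH1 (chr6:147940968-147941008): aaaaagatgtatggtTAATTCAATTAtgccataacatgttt
nearest MAMDC2 (chr9:70135064-70135104): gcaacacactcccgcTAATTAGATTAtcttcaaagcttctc
PKHD1 intron (chr6:51675558-51675598): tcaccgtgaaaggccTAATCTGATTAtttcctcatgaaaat
nearest ALDH1A3 (chr15:100772971-100773011): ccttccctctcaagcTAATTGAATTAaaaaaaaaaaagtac

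At 24 h of dTAGV-1, H3K27ac fell at 170 peaks and rose at 20 of the 122000 tested in ALX1FV ALX4- cells. The falling peaks were 0.139% of those tested and the rising peaks 0.0164%. Without the clone as a block, 33 peaks fell and 1 rose. DESeq2, a second count model, called 19 peaks, all falling. The median log2 fold change of the 170 was -0.94, with a range from -7.04 to -0.47. The peak at -7.04 lay below the median level of tested peaks. Each of the 170 was lower at 24 h in both clones. Their median level went from 23.6 and 26.8 CPM at 0 h (clones c22 and c14) over 16.99 and 19.6 CPM at 3 h to 12.9 and 13.9 CPM at 24 h. The direction of these values is set by how the peaks were chosen and supports nothing further. Peaks just inside the threshold were nearest to SH3PXD2A (-0.75) and RN7SL782P (-1.43), both at FDR 0.0496, and just outside it to TMEM43 (-1.03, FDR 0.0507) and SRP9 (-0.66, FDR 0.0511). Leaving out the 24 h library of clone c14 left 44 of the 170 called falling, and leaving out either 0 h library or the 24 h library of clone c22 left 74 to 90, while all 170 stayed below 0.

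**Figure D1:**
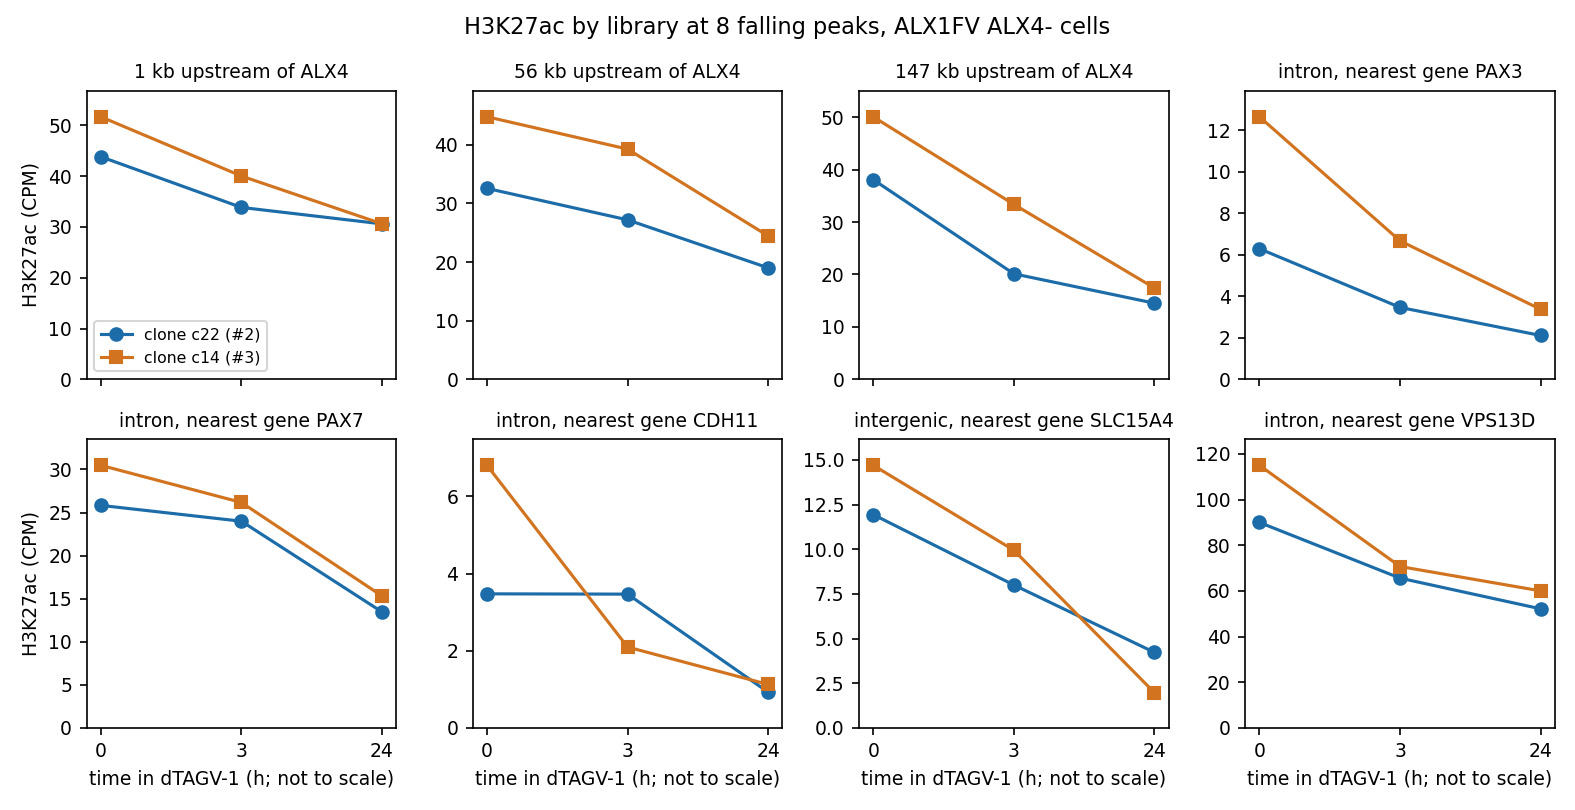
H3K27ac in CPM (linear axes from 0) at 8 falling peaks against time in dTAGV-1, with 1 line per clone of ALX1FV ALX4-. At the peak 147 kb upstream of ALX4, clone c22 went from 38.1 to 14.5 CPM and clone c14 from 50.1 to 17.4 CPM.

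A group of falling peaks lay around ALX4 itself, the gene lost in these cells. Within 250 kb of its start site (chr11:44310139, minus strand), 96 peaks were tested and 4 fell, against 0.139% of all tested peaks. A value below 0 was found at 60 of the 96 (median -0.14), against 50.6% of all tested peaks. H3K27ac over a gene does not check the loss of its protein. At the peak chr11:44457840-44458340, 148 kb upstream of the start, the 2 clones stood at 27.1 and 28.9 CPM at 0 h, at 13.1 and 23.6 at 3 h, and at 8.18 and 9.55 at 24 h. All 24 h values were below all 3 h values, and these below all 0 h values. The fall was 3.22-fold (log2 -1.69 ± 0.20 SE, FDR 2.68e-06).
Its neighbour chr11:44456807-44457719 went from 38.1 and 50.1 CPM over 20.1 and 33.4 to 14.5 and 17.4 CPM (log2 -1.48 ± 0.15, FDR 1.42e-07). Both peaks are intergenic, 11.2 and 10.4 kb from the start of the nearest gene, ENSG00000255451, and stayed called with each of the 6 libraries left out in turn, without the clone block and in DESeq2. The peak chr11:44365971-44366957, 56 kb upstream of ALX4, went from 32.6 and 44.8 CPM over 27.2 and 39.3 to 19.001 and 24.4 CPM (log2 -0.84 ± 0.14, FDR 0.00176). Its call ended without the clone block and, at FDR 0.0755, without the 24 h library of clone c14.
Closest to the gene, the peak chr11:44310834-44311334, 945 bp upstream, went from 43.8 and 51.7 CPM over 33.9 and 40.0 to 30.6 and 30.6 CPM (log2 -0.65 ± 0.13, FDR 0.0113). Without the 0 h or the 24 h library of clone c14 it was not called (highest FDR 0.362), while its value stayed between -0.76 and -0.53, and it was not called without the clone block. The peak over the ALX4 start site itself stood at 153 and 139 CPM at 0 h, 132 and 132 at 3 h and 112 and 128 at 24 h. Its log2 value of -0.31 ± 0.09 did not pass the test (FDR 0.178), but did without the 0 h library of clone c14 (-0.43, FDR 0.00513). The start site of ALX1, the degraded factor, gave 0.16 ± 0.08 (FDR 0.714). That of TWIST1 stood at 35.2 and 18.1 CPM at 0 h and 20.3 and 19.1 CPM at 24 h (log2 -0.43 ± 0.18, FDR 0.586). Its value was 0.14 (FDR 0.978) without the 0 h library of clone c22 and -0.86 (FDR 0.0132) without that of clone c14.

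Before dTAGV-1, V5 peaks, which mark ALX1 in this line, overlapped the peaks 148 kb and 56 kb upstream of ALX4. The 121 bases centred on these V5 summits are shown with each TAAT or ATTA, the core letters of a homeodomain site, in capitals. Neither window held an E-box of the 4 kinds searched (the letters CAGATG or their complement CATCTG, as well as CAGCTG and also CATATG). The authors' -log10 q of the V5 peaks was 2.04 and 1.89, and each was in 1 of the 2 V5 lists.
148 kb upstream of ALX4 (chr11:44458041-44458161): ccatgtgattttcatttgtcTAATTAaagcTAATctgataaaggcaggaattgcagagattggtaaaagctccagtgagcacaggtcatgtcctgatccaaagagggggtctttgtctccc
56 kb upstream of ALX4 (chr11:44366743-44366863): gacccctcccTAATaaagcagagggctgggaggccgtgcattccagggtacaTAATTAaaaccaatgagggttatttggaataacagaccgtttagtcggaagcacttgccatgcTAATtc

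**Figure D2:**
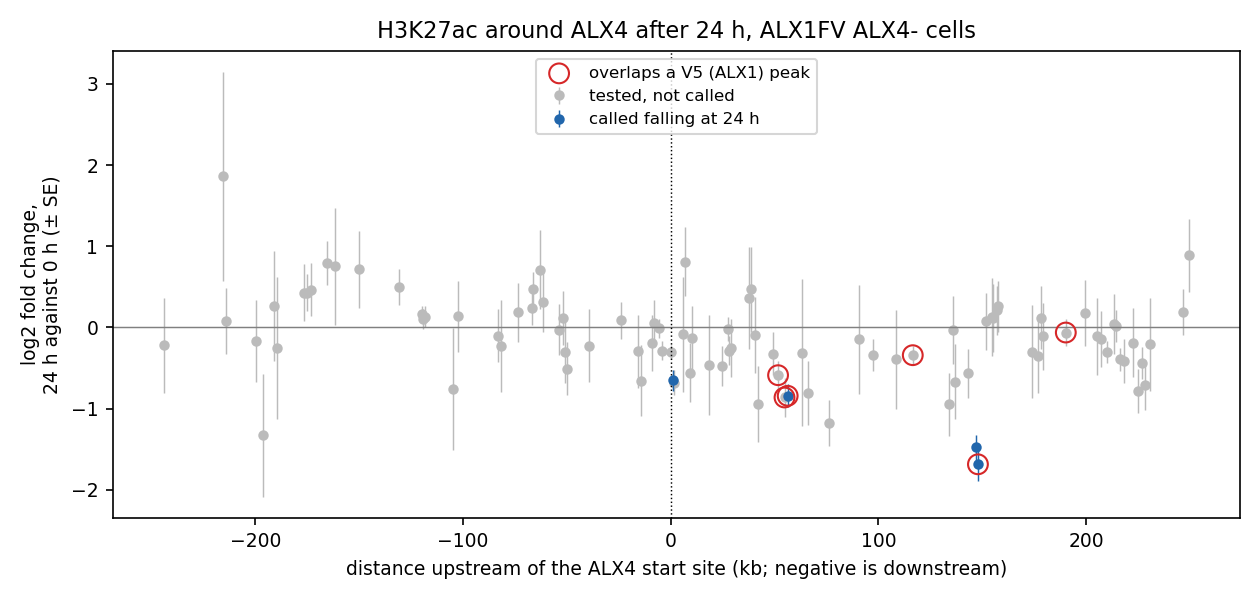
Log2 fold change of H3K27ac at 24 h against 0 h (vertical axis, bars are SE) at the 96 tested peaks within 250 kb of the ALX4 start site, by distance in kb. The pair at 147 and 148 kb lies lowest among the 4 falling peaks, at -1.48 and -1.69.

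PAX3, PAX7 and CDH11 had falling peaks in their introns. PAX3 and PAX7 encode paired-box factors that specify the neural crest. In PAX3 the adjacent peaks chr2:222271827-222272327 and chr2:222272367-222273090, 22.1 and 21.5 kb from the start site, had log2 values of -1.77 ± 0.33 (FDR 0.00737) and -1.56 ± 0.29 (FDR 0.0077). The first went from 6.30 and 12.7 CPM over 3.47 and 6.67 to 2.11 and 3.37 CPM, and the second from 7.60 and 15.2 over 5.06 and 9.55 to 2.11 and 5.90 CPM. Clone c14 was higher than clone c22 at each time. Neither was called without the clone block, or without the 0 h library of clone c14. The first also lost its call without the 24 h library of clone c14 (FDR up to 0.248), and the second without the 0 h or 24 h library of clone c22 (FDR up to 0.0983). A V5 peak overlapped the second, and the 121 bases around its summit (-log10 q 4.41) held no TAAT or ATTA.
The PAX7 intron peak chr1:18730134-18731919, 99.5 kb from the start, stood at 25.8 and 30.5 CPM at 0 h, 24.0 and 26.2 at 3 h and 13.5 and 15.3 at 24 h (log2 -0.98 ± 0.17, FDR 0.00197). The 3 h values stayed near those of 0 h, and the 24 h values lay below all others. This call held with each library left out and without the clone block, but not in DESeq2. CDH11, a cadherin of mesenchymal cells, had the largest fold of the 20 peaks named for the largest falls at or above the median level of tested peaks. It fell 4.89-fold at chr16:64993463-64993963, from 3.47 and 6.80 CPM over 3.47 and 2.09 to 0.924 and 1.12 CPM (log2 -2.29 ± 0.48, FDR 0.0202). At this low level it was not called without the 0 h library of clone c14 or either 24 h library (log2 between -2.89 and -1.60, FDR up to 0.600).

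A pair of falling peaks lay 1.45 Mb upstream of SOX9, a transcription factor of neural crest and cartilage, in the stretch where a distal enhancer cluster is known from families with Pierre Robin sequence. They were singled out after their values were seen. The peak chr17:70672117-70673017 went from 48.1 and 60.7 CPM over 36.7 and 37.2 to 25.9 and 28.9 CPM (log2 -0.997 ± 0.13, FDR 1.69e-05), and was called without the clone block and by DESeq2 as well. The peak chr17:70674401-70674901 went from 31.4 and 38.5 CPM over 23.6 and 25.9 to 19.4 and 23.3 CPM (log2 -0.72 ± 0.15, FDR 0.0159), and was called by neither of these. In both peaks the values of the 3 times did not overlap. Both held V5 peaks in both V5 lists and TWIST1 peaks, and their nearest annotated gene is ENSG00000267471, 43.3 and 45.4 kb away. In TWIST1FV cells they fell by 2.93 and 2.63 on the log2 scale at 24 h, and the response of neither differed from that of ALX1FV past the threshold (-0.68, FDR 0.0759 and -0.61, FDR 0.355). The 121 bases around the V5 summit of the first (-log10 q 4.78) held no TAAT or ATTA and no E-box of the kinds searched. The V5 summit of the second (-log10 q 13.5) is printed with its TAAT or ATTA letters and its E-box, CAGCTG, in capitals.
SOX9 side, second peak (chr17:70674641-70674761): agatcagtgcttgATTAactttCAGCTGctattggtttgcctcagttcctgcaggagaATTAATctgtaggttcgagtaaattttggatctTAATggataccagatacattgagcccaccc

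The peaks that DESeq2 also called were, besides those at ALX4 and SOX9, mostly intronic or intergenic. They were chosen by their values and are given as a description. The peak chr12:128734028-128735146, 67.1 kb from the start of SLC15A4, a lysosomal transporter, fell 4.27-fold, from 11.9 and 14.7 CPM over 8.00 and 9.95 to 4.22 and 1.97 CPM (log2 -2.09 ± 0.30, FDR 0.000155). An intergenic peak on chromosome 8 nearest to ENSG00000273978 fell 3.90-fold (17.1 and 13.3 CPM to 4.22 and 3.65 CPM). In an intron of YAP1, the co-activator of the Hippo pathway, chr11:102151739-102152554 went from 19.3 and 22.3 CPM to 8.18 and 8.15 CPM (log2 -1.36 ± 0.22).
In LAMA3, which encodes a laminin chain of basement membranes, the peak that holds 2 palindromes (chr18:23772235-23773173) went from 20.4 and 29.7 CPM over 13.9 and 14.7 to 8.71 and 11.2 CPM (log2 -1.33 ± 0.20). All 24 h values were below those of 3 h, and these below those of 0 h. Intron peaks of AOPEP (-1.36), TMEM131 (-1.16), CEP68 (-1.0997) and MACROD2 (-1.05) had falls of like size. At VPS13D, whose product transfers lipids between organelles, 2 adjacent peaks fell at 24 h, chr1:12405909-12407206 from 90.0 and 115 CPM to 52.1 and 60.0 CPM and chr1:12407355-12407855 from 30.9 and 42.1 to 17.02 and 19.9 CPM.

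By nearest gene of any kind, the 170 peaks went to 158 genes, and no gene had 3 or more. By nearest protein-coding gene, EFNA5, an ephrin ligand of guidance receptors, and ENSG00000284686 had 3 each. The EFNA5 intron peak chr5:107604623-107606657 went from 77.1 and 89.6 CPM to 57.8 and 58.7 CPM, and the other 2 lay 94.6 and 95.2 kb from the start, at no more than 9.25 CPM in the 6 ALX1FV ALX4- libraries. At 0 h the farther of them, nearest to RN7SL782P, stood at 6.32 to 92.5 CPM in the other lines, highest in WT. A pair of adjacent peaks lay 65.5 and 66.3 kb from GPC1, a heparan sulfate proteoglycan of the cell surface (-0.97 and -0.76). Introns of VWA3B held 3 separate falling peaks (-0.66, -0.85 and -0.76). ENSG00000284686 had a pair in introns of PLPP3 (-0.57 and -0.86). Of all tested peaks 0.139% fell. Among the lists of related genes, 3 of 117 peaks nearest to neural crest specifiers fell (2.56%), 2 of them the adjacent PAX3 pair. Of 286 nearest to adhesion and matrix genes, 1 fell (0.350%). The median log2 values of these lists were -0.13 and 0.03, beside -0.01 over all tested peaks. No peak fell among 144 nearest to other homeodomain factors, 102 to TWIST1 and bHLH partners, 169 to facial mesenchyme factors and 476 to signalling genes. None of these lists had a rising peak. At so low a share over all tested peaks, a count of 0 in lists of these sizes is no contrast. The falling peaks of these lists are those near PAX3, PAX7 and CDH11 described above.
The remaining peaks named by the rule of largest falls were nearest to RNA5SP197 (in an SLC36A1 intron, -2.23), ENSG00000272865 (in a PLD5 intron, -2.11), MRPS33P3 (-1.99), GORASP1 (-1.90), ENSG00000251492 (-1.87), DHRSX (-1.78), PLEKHG7 (-1.75), RN7SL782P (near EFNA5, -1.72), ENSG00000223593 (in an EGLN3 intron, -1.71), LINC01724 (-1.69), ADAMTSL1 (-1.65), ENSG00000261555 (-1.60), NENFP3 (-1.54) and PRKCI (-1.50). DHRSX lies in the pseudoautosomal region, whose sequence the X and Y chromosomes share, and how reads there were assigned is not given. Of the 20 peaks so named, those at SLC15A4, ENSG00000273978 and ENSG00000255451 stayed called whichever library was left out, and each of the other 17 lost its call without at least 1 of the 0 h or 24 h libraries.

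At 3 h of dTAGV-1, 2 peaks fell (0.00164% of those tested) and none rose. This comparison shares its 0 h libraries with that at 24 h. The VPS13D peak chr1:12405909-12407206 stood at 65.6 and 70.7 CPM at 3 h against 90.0 and 115 CPM at 0 h (log2 -0.59 ± 0.10, FDR 0.0148). The peak chr5:119570093-119571728 in an intron of HSD17B4, a peroxisomal enzyme of fatty acid oxidation, went from 37.8 and 40.0 CPM to 24.0 and 16.8 CPM at 3 h (log2 -0.96 ± 0.15, FDR 0.0148) and stood at 27.6 and 19.4 CPM at 24 h (log2 -0.75 ± 0.15). Its value was lower at 3 h than at 24 h in each clone. Neither peak was called at 3 h without the clone block, by DESeq2, or without the 3 h library of clone c14. Leaving out the 0 h library of clone c14 instead gave 115 calls at 3 h. At 24 h the HSD17B4 call ended without the 0 h or the 24 h library of clone c14 (log2 -0.48 and -0.60). A V5 peak lay in the HSD17B4 peak with a -log10 q of 10.4, above the values at ALX4, and its summit window held 5 copies of TAAT or ATTA, some of them overlapping, in capitals here.
HSD17B4 intron (chr5:119571012-119571132): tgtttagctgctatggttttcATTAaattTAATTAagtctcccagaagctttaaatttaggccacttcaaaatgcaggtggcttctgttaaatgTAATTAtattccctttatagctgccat
Among the 170 peaks falling at 24 h, the median log2 value at 3 h was -0.49, 169 were below 0 and 166 had fallen less at 3 h than at 24 h. In the fit of all 36 libraries, which pools the spread of the 6 lines, 75 of 174645 peaks fell at 3 h (0.0429%), and 33 of them were among the 170.

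The same 170 peaks were followed in the other 5 lines, whose libraries had no part in choosing them. In ALX1FV cells, which keep ALX4, their median log2 fold change at 24 h was -0.20, and 150 of 170 (88.2%) were below 0, against 49.3% of all tested peaks. The medians were -0.04 in PRRX1FV (105 below 0, 61.8%), -0.08 in MSX1FNV (112, 65.9%) and -0.03 in WT (104, 61.2%). Of all tested peaks 50.6%, 50.6% and 50.1% were below 0 in these lines. At 3 h the shares of the 170 below 0 were 72.9% in ALX1FV, 67.1% in WT, 45.9% in PRRX1FV and 38.8% in MSX1FNV. Those of all tested peaks were 49.05% to 51.8%. Fitted alone with a replicate block, ALX1FV had 1 peak called at 24 h and WT none (5897 and 5586 peaks at an unadjusted p under 0.05). Tested directly in the fit of all 36 libraries, the 24 h response was below that of ALX1FV at 56 peaks (0.0321% of 174645) and below that of WT at 142 (0.0813%), and 40 and 100 of these were among the 170. These differences contain the contrast that chose the peaks, so the counts are descriptions. Counting both directions, 57 peaks differed from ALX1FV and 144 from WT, and without the replicate block these counts were 0 and 7. DESeq2 gave 0 and 85.
At the 148 kb peak of ALX4 the ALX1FV response was -0.32 and that of WT -0.01, and the difference from ALX1FV was -1.35 (FDR 2.46e-05). At the PAX7 peak the response was -0.15 in ALX1FV and 0.05 in WT. At the first SOX9 peak it was -0.30 in ALX1FV.

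**Figure D3:**
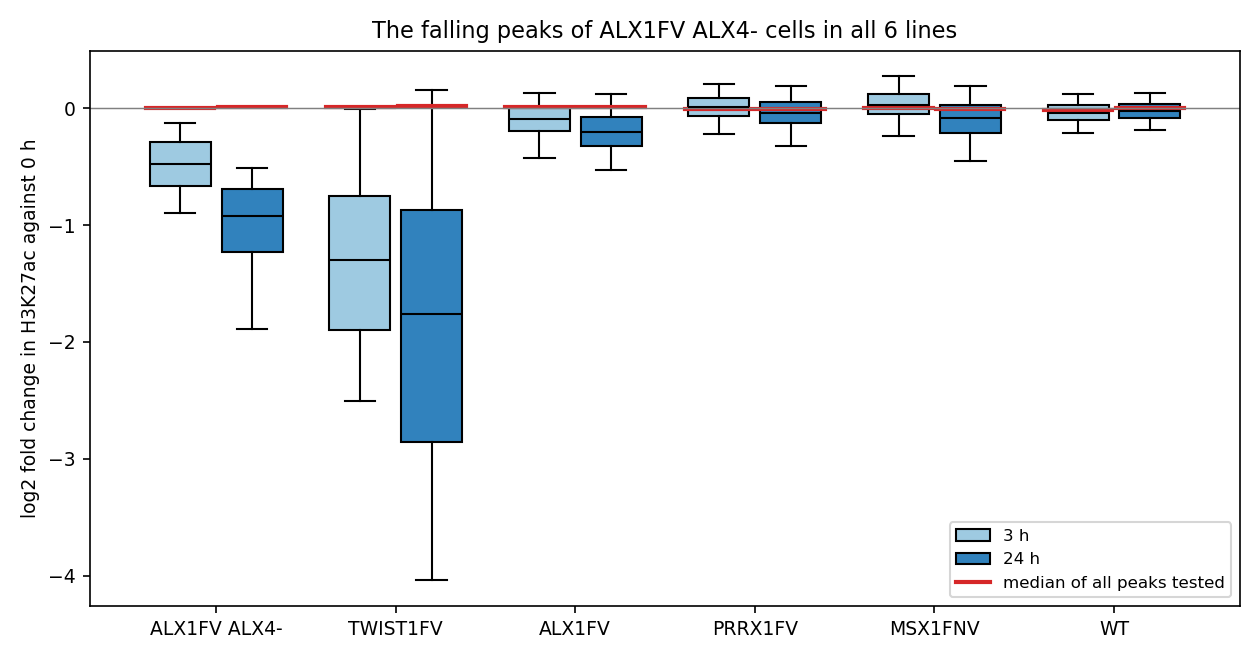
Log2 fold change in H3K27ac against 0 h of the 170 falling peaks in each of the 6 lines, at 3 h and 24 h, from the fit of all 36 libraries (boxes are quartiles with the median, whiskers the 5th and 95th percentiles, red lines the medians of all tested peaks). The medians at 24 h are -0.92 in ALX1FV ALX4- (where the peaks were chosen), -1.76 in TWIST1FV and between -0.20 and -0.03 in the other lines.

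Before any dTAGV-1, the 170 peaks already carried less H3K27ac in ALX1FV ALX4- cells than in the other lines. Their median level of 23.6 and 26.8 CPM at 0 h stood against 43.9 to 71.7 CPM in the 10 other 0 h libraries. At 128 of the 170 (75.3%), both ALX1FV ALX4- libraries were below all 10, as they were at 6.03% of all tested peaks, and at none were both above all 10. Among tested peaks at or above the median level of the falling ones (log2 CPM 4.399), that share was 9.56%, and among the 85 falling peaks there 82.4%. At the 148 kb peak of ALX4, 27.1 and 28.9 CPM compared with 45.6 to 96.7 CPM elsewhere. The lines differ in clone as well as in ALX4, and these cannot be told apart.

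TWIST1 loss gave a far wider change. In TWIST1FV cells 10.9% of the 104465 peaks tested in both lines fell at 24 h and 4.65% rose, and 4.97% fell at 3 h. Of the 170 falling peaks, 131 (77.1%) fell in TWIST1FV at 24 h and 119 (70.0%) at 3 h, 4 rose at 24 h and 35 were not called. With a replicate block in the TWIST1FV fit, 143 (84.1%) fell at 24 h, 12 of those 35 among them, and 5 rose. In the other direction, these 131 were 1.12% of the 11706 peaks that fell in TWIST1FV. The TWIST1FV falls were mostly deeper: the median over the 170 was -1.76, and the response differed from that of ALX1FV ALX4- at 97 peaks where it was lower in TWIST1FV and 26 where it was higher, beside 5.42% and 1.8% of all peaks tested. Over the 11345 TWIST1FV-falling peaks tested in both lines, the median value in ALX1FV ALX4- cells was -0.18, and 70.4% were below 0, against 50.6% of all tested peaks. The 2 lines share no library.
Several peaks near the genes above fell in both lines, such as SLC15A4 (-3.81 in TWIST1FV), YAP1 (-3.44), PLEKHG7 (-4.80) and both VPS13D peaks (-2.48 and -2.83). The pair upstream of ALX4, at 147 and 148 kb, did not pass in TWIST1FV at 24 h without a replicate block (-0.53, FDR 0.155 and -0.63, FDR 0.0969) and passed with one (-0.55, FDR 0.000168 and -0.65, FDR 0.000105). The peak at 56 kb likewise passed only with the block (-0.52, FDR 0.00211, against -0.45, FDR 0.477). The falls of the pair at 24 h were smaller than in ALX1FV ALX4-, and the differences between the lines were called (-0.91, FDR 1.76e-06 and -1.02, FDR 2.53e-05). At 3 h the TWIST1FV values of the pair were -0.83 (FDR 0.0464) and -0.76 (FDR 0.0820) without the block. Both passed with it (-0.84, FDR 2.06e-06 and -0.78, FDR 2.87e-05). In the fit of all 36 libraries the 3 h values were -0.83 and -0.77 in TWIST1FV, beside -0.74 and -0.64 in ALX1FV ALX4-. At 945 bp upstream of ALX4 the TWIST1FV value at 24 h was 0.05, with a called difference of -0.65 (FDR 0.00244).

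At 4 peaks the lines moved in opposite directions. The ADAMTSL1 intron peak (chr9:17949143-17950216) fell from 11.7 and 18.4 CPM to 6.60 and 3.09 CPM in ALX1FV ALX4- cells and rose from 15.9 and 18.7 CPM to 90.2 and 88.8 CPM in TWIST1FV (log2 -1.65 and 2.38). ADAMTSL1 encodes a secreted matrix protein. The others lay near LINC01724 (-1.69 and 1.46), 18.2 kb from PRKCI, an atypical protein kinase C (-1.50 and 1.73), and in a PLD5 intron (-2.11 and 1.1001). Of these 4, 2 hold the palindrome printed above (LINC01724 and ADAMTSL1). In ALX1FV cells all 4 values were below 0, with a median of -0.60. In MSX1FNV cells 1 of the 4 was called rising at 24 h and 1 was below 0. The PRKCI peak had a log2 value of 1.18 in MSX1FNV, so its rise was not confined to TWIST1FV.

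**Figure D4:**
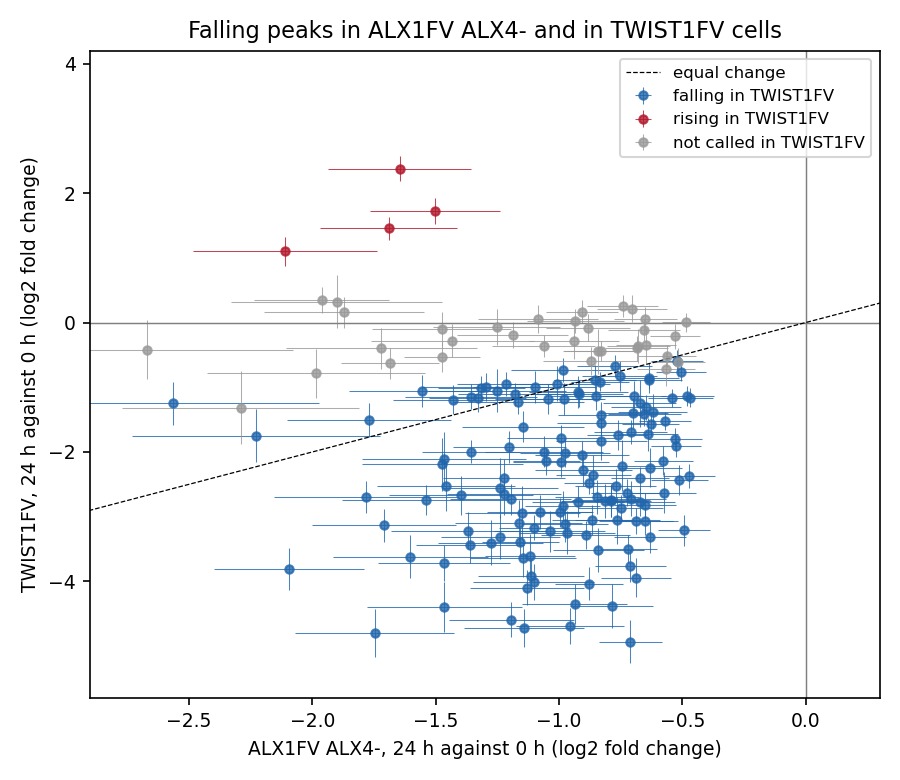
Log2 fold change at 24 h of the falling peaks in ALX1FV ALX4- cells (horizontal axis) against TWIST1FV cells (vertical axis), for 169 of the 170 peaks. The remaining 1, below the median level of tested peaks, lies beyond the left edge at -7.04. Colours give the TWIST1FV calls without a replicate block. Most points lie below 0 on the vertical axis, and 4 rise to between 1.1001 and 2.38.

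Most falling peaks were away from start sites and overlapped TWIST1 peaks of the same line. TWIST1 peaks of ALX1FV ALX4- cells at 0 h, in both replicates, overlapped 154 of the 170 (90.6%, Wilson 95% interval 85.3 to 94.1%, counting error only), against 27.6% of tested peaks. V5 peaks in either replicate, from lists of 920 and 1116, overlapped 43 (25.3%, 19.4 to 32.3%), against 1.30%. Falling peaks were higher than tested peaks in general, with a median level of 4.399 against 1.59 log2 CPM, and wider (median 915.5 against 501 bp). Among tested peaks at or above that level, 60.1% were TWIST1-bound and 7.19% V5-bound, against 98.8% and 34.1% of the 85 falling peaks there. Peaks of AP2a, a neural crest factor, came from libraries labelled hCNCC with no line named, 1 per antibody. Those in the lists of both antibodies overlapped 42.9% of falling and 14.4% of tested peaks, but 51.8% and 56.7% at the matched level. Start sites of protein-coding genes lay in 5.88% of falling and 13.2% of tested peaks. The median distance to the nearest start site was 20572 bp for falling and 7441 bp for tested peaks.
Seen from binding, the 1587 V5-bound peaks had a median log2 value of -0.13 at 24 h, 71.8% were below 0, and 2.71% fell. The same peaks had medians of -0.04 in ALX1FV and -1.07 in TWIST1FV.

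Motifs were searched on both strands in the 501 bases around each peak's centre. The homeodomain letters TAATTA, or else TAATTG with its complement CAATTA, were in 41.8% of falling and 28.2% of tested peaks, and an E-box in 72.4% and 64.7%. The palindrome TAATNNNATTA was in 9 falling peaks (5.29%, 2.81 to 9.75%) and 1.16% of tested peaks. With spacers of 0 to 10 bases, the share in falling peaks ran from 0 to 3.53% at the other lengths, and the tested share from 0.804 to 1.16% over all. The composite of an E-box and a homeodomain site 4 bases apart was in none of the 170 (Wilson interval up to 2.21%) and in 0.740% of tested peaks. With the bare core TAAT or ATTA in place of the homeodomain letters, the same 4-base gap was in 6 falling peaks (3.53%) and 1.68% of tested peaks, the highest share of the gaps of 0 to 10 bases in both. The bare letters TAAT or ATTA were in 90.6% of falling and 82.1% of tested peaks. Median GC content was 43.9% in falling and 47.7% in tested peaks, and these shares were not matched for it. At or above the median level of falling peaks, the homeodomain letters were in 41.2% of 85 falling and 18.4% of 12132 tested peaks. The palindrome was in 3.53% and 0.577% of them. Of 48 V5-bound peaks with the palindrome, 5 fell (10.4%), with a median of -0.25 over the 48. A match of letters is a description and no measure of binding.

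**Figure D5:**
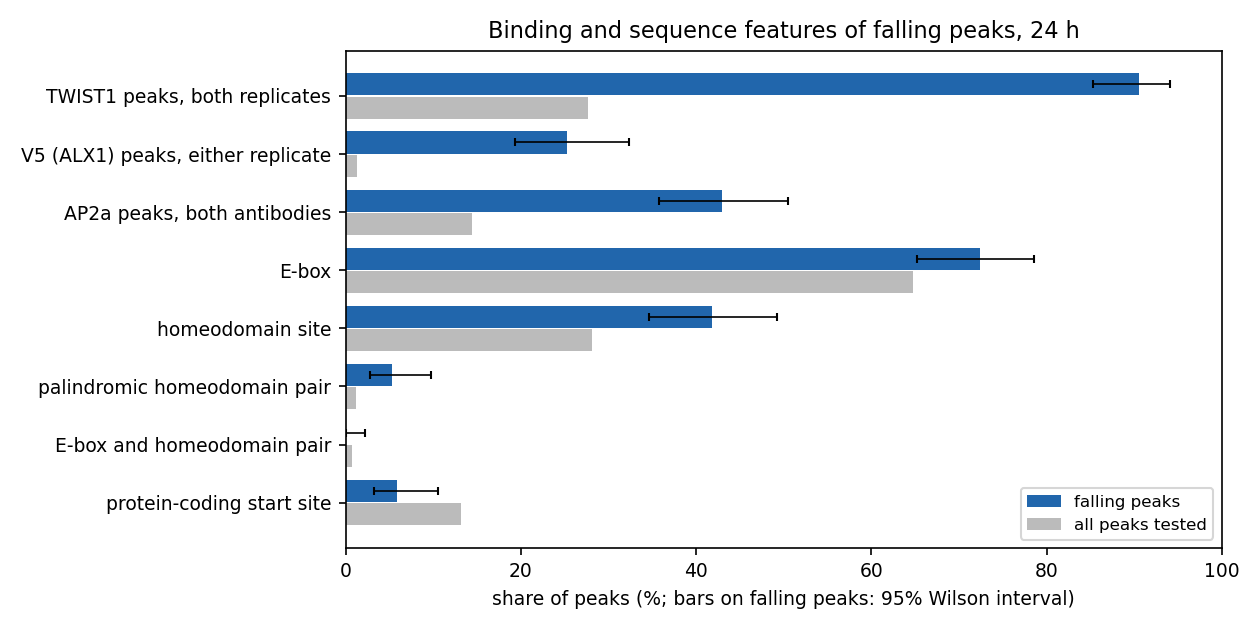
Share of falling peaks (n = 170, bars are 95% Wilson intervals) and of all tested peaks (n = 122000) with each kind of binding, sequence or position, in percent from 0 to 100. TWIST1 peaks overlap 90.6% of falling and 27.6% of tested peaks.

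The 16 falling peaks outside TWIST1 binding differed in several measures from the 154 within it. Their median GC content was 52.9% against 43.6%, and 6 of 16 fell in TWIST1FV against 125 of 154. In ALX1FV 8 of 16 were below 0 against 142 of 154. Of the 10 falling peaks at start sites, 7 were higher in clone c22 than in clone c14 at 0 h. As 59.7% of all tested start-site peaks were, 7 of 10 is no contrast. Among these 7, and chosen by their values, were FASN, the fatty acid synthase (28.4 and 8.98 CPM, then 9.24 and 7.30 CPM at 24 h), and WRNIP1, a DNA repair factor (32.3 and 14.2 CPM, then 9.50 and 10.1 CPM). Over all 16057 tested start-site peaks the 0 h library of clone c22 lay 0.09 above that of clone c14 in median log2 CPM, and the 24 h libraries differed by -0.0035. None of these 10 was called without the 0 h or without the 24 h library of clone c22, while 86 and 72 of the 154 TWIST1-bound peaks were. Without the 0 h or the 24 h library of clone c14, 9 and 6 of the 10 were called. The part of clone c22 in the start-site falls was not tested further.

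The 20 rising peaks held no V5 peak. As 1.30% of all tested peaks held one, a count of 0 in 20 is no contrast. Those with the largest rises above the median level lay near ENSG00000287984 (1.08 ± 0.23), ASB4 (1.01 ± 0.22), PPARD, a nuclear receptor of lipid metabolism (0.91 ± 0.20), NT5E, which encodes the surface enzyme CD73 (0.86 ± 0.17), and MYO1H, a myosin (0.84 ± 0.15). The MYO1H intron peak went from 19.3 and 18.5 CPM over 28.9 and 28.4 to 37.6 and 30.9 CPM, with the 3 times not overlapping. None of these 5 stayed called with every library left out in turn, and MYO1H alone was called without the clone block. At 0 h, 9 of the 20 rising peaks were above all 10 libraries of the other lines, as were 6.15% of all tested peaks.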

How the data were processed

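Per the labels' protocols, H3K27ac ChIP-seq was done with an Active Motif antibody in H9-derived cells. The submitters' processing notes name the builds hg38 and mm39 with the tools Bowtie2 2.4.1, SAMtools 1.10, MACS2 2.2.7.1 and deepTools 3.5.0, and peaks were called per sample, as the separate deposited lists show. The deposited counts are whole-number reads over 213151 merged ATAC peaks of 501 to 3398 bp; at least 79.6% of counts of 20 or more in these 6 libraries were even, which may mean that both mates were counted. Factor peaks carry the deposited −log10 q, used only to describe peaks. The mouse spike-in of TWIST1FV and WT was not used, and ALX1FV ALX4- has none, so a change shared by all peaks cannot be seen. No step of the authors' counting is given in the sources used here.

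Totals were 5137169 to 9173063 counts in the 36 libraries. Counts were filtered (filterByExpr), scaled by TMM and tested with edgeR 4.0.16 (quasi-likelihood, Benjamini-Hochberg FDR 0.05) in R 4.3.3; DESeq2 1.42.0 was the alternative. The SE is the log2 fold change over the root of F; levels are CPM, or log2 CPM with prior count 2. The ALX1FV ALX4- fit had the clone as a block, TWIST1FV (1 clone) had none, and differences between lines came from 1 fit of all 36 libraries with a replicate block within each line. The pairing comes from the clone named in the labels. Deviations of the 2 clones at the 3 times correlated by 0.028 to 0.037 across peaks. Those of the TWIST1FV replicates, fitted without a block, correlated by 0.078 to 0.141. The choice of block therefore rests on the labels and not on these values. Replicates of TWIST1FV share a clone, so p-values there measure only the spread between these samples. Peaks were assigned to GENCODE 44 starts; overlaps (bedtools 2.31.1) needed 1 bp. V5 lists of either replicate and TWIST1 lists of both were used, all at 0 h. Named peaks were the 20 largest falls at 24 h above the median level of tested peaks (log2 CPM 1.59) that were lower in both clones, up to 5 rises at 24 h and 5 calls per direction at 3 h by the same rule, nearest genes with 3 or more falling peaks, called peaks nearest to a listed gene, and the start sites of ALX1, ALX4 and TWIST1. Others, the DESeq2 calls and start-site peaks among them, were chosen after their values were seen. The members and gene lists were chosen with earlier results of these data known. Values for some genes and 1 gene list are not reported here. The scripts were tested on simulated data. The alternatives were DESeq2, library size alone, no filter, halved counts, the block, the fit of 36 libraries, other peak overlaps and leaving out each library.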

Additional observations from a re-analysis of the deposited data

Results flagged for a closer look

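Some 24 h responses differed between lines when the difference itself was tested in the fit of 36 libraries. In all, 57 peaks differed from ALX1FV, 12607 from TWIST1FV and 144 from WT. Because peaks were named for their fall in ALX1FV ALX4-, these differences are partly set by that choice. Below ALX1FV were the peaks near SLC15A4 (-1.67), ENSG00000273978 (-1.18), DHRSX (-1.48), PLEKHG7 (-1.38), ENSG00000223593 in an EGLN3 intron (-1.45), ENSG00000255451, 148 kb upstream of ALX4 (-1.35), PAX3 (-1.40, the second peak) and PAX7 (-0.81), in log2. Below TWIST1FV, where the mark rose, were LINC01724 (-3.13), ENSG00000272865 in a PLD5 intron (-3.20), PRKCI (-3.19) and ADAMTSL1 (-3.97).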

How the results depend on the processing

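The 190 calls at 24 h became 19 with DESeq2, 438 with counts halved, 34 with no replicate block and 556 in the fit of all 36 libraries; leaving out 1 library gave 134 to 282, of which 48 to 187 were among the 190. The 2 calls at 3 h became 0 with DESeq2 and 0 with no replicate block, 28 with counts halved, 9 with library size alone, 17 with no filter and 78 in the fit of 36; leaving out 1 library gave 1 to 115. The TWIST1FV counts were 23197 (24 h, against 16982) and 12914 (3 h, against 6520) with a replicate block, and 11325 to 20625 and 3261 to 8476 with 1 library left out, lowest without the 0 h library of replicate 1. The 57 differences from ALX1FV became 16 in the 12 libraries of the 2 lines, 0 with DESeq2, 0 with no replicate block and 14 to 239 with 1 library left out. The 12607 differences from TWIST1FV became 8375 with no replicate block and 9176 to 10251 with 1 left out, and the 144 from WT 85 with DESeq2, 7 with no replicate block and 83 to 142 with 1 left out. TWIST1 overlap of falling peaks was 75.3% by summit, and V5 overlap 7.65% in both lists. With 1 library left out, the TWIST1 start site ran from -0.86 to 0.14 at 24 h and from -0.99 to 0.013 at 3 h, and the ALX1 start site from -0.023 to 0.25 at 3 h. Each reversal came from a 0 h library, that of clone c22 for TWIST1 and of clone c14 for ALX1. Of 34 named 24 h values, 26 lost their call with DESeq2 and 17 with no replicate block; library size alone and no filter changed none. The cause of these changes was not tested. With 2 clones a time, peaks of low count had wide errors, as at CDH11.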

Other observations

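The falling peaks were also described by whether a V5 peak overlapped them. The 43 with V5 had a median of -0.76 at 24 h and 37 of them (86.0%) fell in TWIST1FV. The 127 without V5 had a median of -0.98, and 94 of them (74.0%) fell there, beside 10.9% of all peaks tested in both lines. V5 peaks of ALX1FV cells, in which ALX4 is present, overlapped 59 of the 170 falling peaks (34.7%) and 1.23% of tested peaks. No test was made of these values.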
